A study of Danio rerio with 4 samples.

Results

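Inhibins, activins and follistatins form a small signalling system of the gonad. Activins are dimers of beta subunits, encoded by the inhba and inhbb genes, and they act through membrane receptors and Smad proteins. Inhibins are dimers of a beta subunit with the alpha subunit, encoded by inha, and in mammals they are made by granulosa and Sertoli cells and lower the release of follicle-stimulating hormone from the pituitary. Follistatins, encoded by the fst genes, bind activins outside the cell and keep them from their receptors, and the related protein of fstl3 does so in mammals.

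The genes were chosen by symbol, from a list of 7 symbols (inha, inhbaa, inhbab, inhbb, fsta, fstb and fstl3), and 8 of the 32520 gene IDs in the count table carried one of them. The table of symbols gives inhba, inhbb and fst to 2 IDs each and mostly without the letter of the copy. The study's own gene tables pair inhbaa with one inhba ID. The others are named here by symbol and ID number: inhba-24759 (ENSDARG00000024759), inhbb-40777 (ENSDARG00000040777), inhbb-103892 (ENSDARG00000103892), fst-52846 (ENSDARG00000052846) and fst-57992 (ENSDARG00000057992). The RefSeq table of the later assembly GRCz12tu holds 1 gene named inhbb, so it is not settled that inhbb-103892 is a second copy of inhbb.

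RNA-Seq read counts came from gonads of adult zebrafish of the AB strain, 2 testes and 2 ovaries. Each library was made from 1 fish, and all fish were null controls, exposed neither to the aromatase inhibitor exemestane nor to its solvent DMSO. In the study each adult group was kept in 1 tank, where a plate with holes separated the sexes, so the replicates are fish that shared water. Exposed fish were not analysed here.

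The testis libraries held 11554811 and 12382674 counts, and the ovary libraries 26137839 and 18085251. Levels are given as CPM, counts per 1000000 counts of an effective library size (TMM scaling). CPM is not corrected for gene length, so it does not show which gene had more transcripts. The labels of the tissues were checked against marker genes. The Sertoli cell genes amh and gsdf had at least 269 CPM in each testis and at most 14.9 CPM in each ovary. Another Sertoli cell gene, dmrt1, had 289 and 494 CPM in the testes and 33.4 and 0.807 CPM in the ovaries. The meiosis gene sycp1 had 956 and 799 CPM in the testes, against 0.847 and 1.68 CPM in the ovaries. The 6 oocyte genes of a marker list summed to 49.9 and 41.6 CPM in the testes and to 7248 and 4676 CPM in the ovaries, and none of them was at 0 in any library.

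All 8 genes passed the filter on low counts and were tested among 21815 genes. At an edgeR adjusted p under 0.05, 5 were higher in testis, 1 was higher in ovary and 2 did not pass. Of all genes tested, 65.2% were called, 36.7% as higher in testis and 28.5% as higher in ovary. In 6 of the 8 genes both testes lay above both ovaries, as in 48.1% of all genes, and in 1 gene both ovaries lay above both testes, as in 36.6% of all genes. The median log2 fold change, testis over ovary, was 3.35 over the 8 genes, also with inhba-24759 at its lower bound, and 0.45 over all genes tested. The genes inhba-24759, fst-52846 and fst-57992 passed the filter only by their testis counts, and inhbb-103892 only by its ovary counts. These calls and this median thus depend on the filter. With at least 10 counts in every library these genes were not tested. There inha and inhbb-40777 were called, and inhbaa and fstl3 were not. Libraries were made from whole gonads, so fewer cells of a type and less RNA per cell cannot be told apart.

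**Figure D1:**
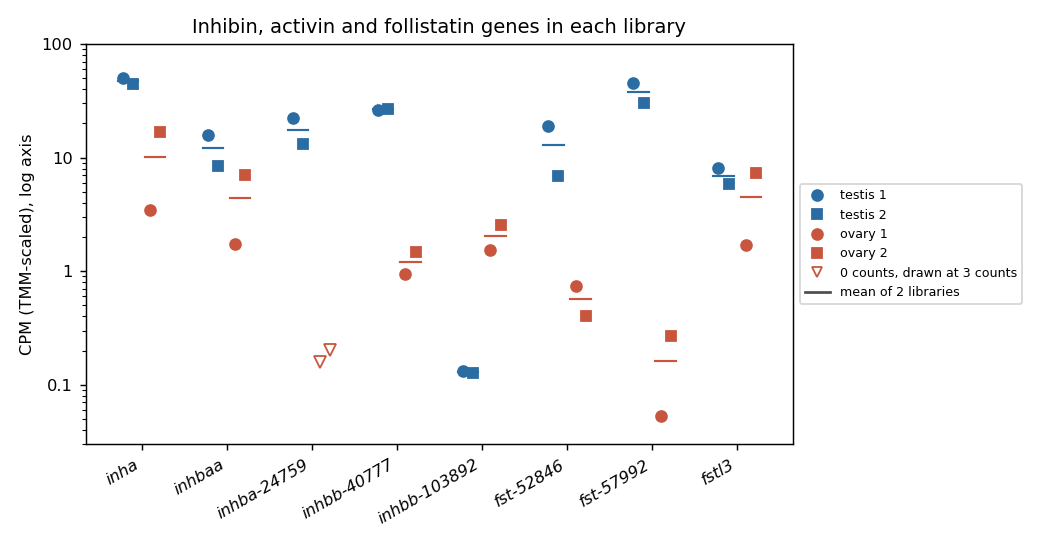
Level of each gene in the 4 libraries, in TMM-scaled CPM on a log axis, with testes in blue left of ovaries in red. Circles are replicate 1, squares replicate 2, lines the mean of 2 libraries, and open triangles 0 counts drawn at the level of 3 counts. Both fst genes, inhbb-40777 and inhba-24759 lie well apart between the sexes, inha and inhbaa lie closer, inhbb-103892 lies the other way round, and fstl3 overlaps.

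The alpha subunit gene inha (ENSDARG00000052433) was expressed in both sexes and was higher in testis. It had 767 and 696 counts in the testes, which is 50.3 and 44.5 CPM, against 65 and 248 counts in the ovaries, which is 3.44 and 16.7 CPM. The testes were close to each other, whereas ovary replicate 2 was well above ovary replicate 1, and the groups did not overlap. Testis over ovary came to 2.24 ± 0.68 on the log2 scale (SE), with a 95% interval from 0.58 to 3.90 and an edgeR adjusted p of 0.0278. It was 3.70 without ovary replicate 2 and 1.52 without ovary replicate 1. Without testis replicate 1 it was 2.15 and did not pass (edgeR adjusted p 0.0564). Over the 12 alternatives tried, 10 kept the call, with edgeR or DESeq2 adjusted p from 0.00269 to 0.0606.

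Of the beta A subunit genes, inhbaa (ENSDARG00000012671) was found in both sexes. It had 240 and 132 counts (15.7 and 8.43 CPM) in the testes and 33 and 105 counts (1.75 and 7.06 CPM) in the ovaries. Testis replicate 2 and ovary replicate 2 were near each other, and the difference did not pass (log2 fold change 1.46 ± 0.74, SE, 95% interval -0.34 to 3.26, edgeR adjusted p 0.125). It passed without ovary replicate 2, where the log2 fold change was 2.71 (edgeR adjusted p 0.0315).

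The other beta A gene, inhba-24759, was found in the testes alone. It had 339 and 205 counts there, or 22.2 and 13.1 CPM, and 0 counts in each ovary, although the ovary libraries were the deeper ones. A count of 0 allows up to 0.202 CPM in the shallower ovary library, taking 3 counts per library as the floor. The mean testis level of inhba-24759 was thus at least 87.6-fold higher, and the level of the lower testis at least 64.9-fold (edgeR adjusted p 0.000771 for testis against ovary). It was called in each of the 11 alternatives that tested it.

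Of the beta B subunit genes, inhbb-40777 was higher in testis, with nearly equal levels in both testes. It had 401 and 422 counts (26.3 and 27.0 CPM) in the testes and 18 and 22 counts (0.953 and 1.48 CPM) in the ovaries. On the log2 scale the difference was 4.45 ± 0.43 (SE, 95% interval 3.41 to 5.50), or 21.9-fold, at an edgeR adjusted p of 0.000483.

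The gene inhbb-103892 went the other way. It had 2 and 2 counts (0.131 and 0.128 CPM) in the testes and 29 and 38 counts (1.54 and 2.55 CPM) in the ovaries, so both ovaries lay above both testes at low levels. The fitted log2 difference was -3.90 ± 0.77 (SE, 95% interval -5.75 to -2.04, edgeR adjusted p 0.00538), and all 11 alternatives that tested it kept the call. From the summed counts of 4 in the testes and 67 in the ovaries, the level in ovary was 15.3 times that in testis, with an exact 95% interval for counting error from 5.72 to 57.9. Of the 6 oocyte genes, zar1 (61 and 6 counts) and zp3b (327 and 113) had more counts in testis replicate 1 than in replicate 2. The other 4 had more in replicate 2, from 8 and 16 counts of figla to 284 and 314 of buc, while inhbb-103892 had 2 in each. The part of oocyte RNA in its testis counts was not tested.

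**Figure D2:**
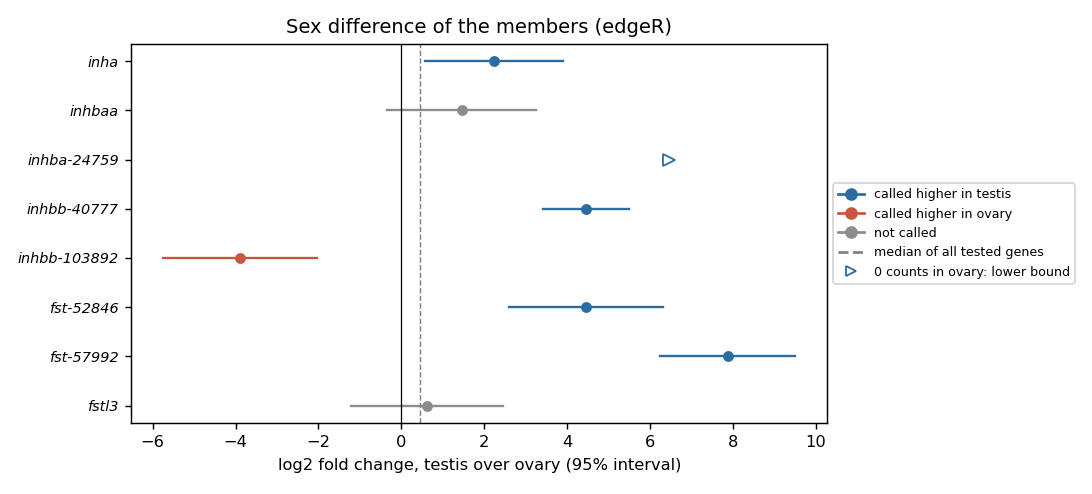
Log2 fold change, testis over ovary, of the 8 genes with 95% intervals from edgeR. Blue marks genes called higher in testis, red higher in ovary and grey not called. The dashed line is the median of all tested genes (0.45). The open triangle is the lower bound for the mean testis level of inhba-24759, which had 0 counts in the ovaries (6.45).

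Both follistatin genes were higher in testis. fst-57992 had 688 and 474 counts (45.1 and 30.3 CPM) in the testes and 1 and 4 counts (0.0529 and 0.269 CPM) in the ovaries. Few reads stand behind the ovary values, and the groups lay far apart. This was a difference of 7.89 ± 0.67 in log2 units (SE), with an edgeR adjusted p of 0.000321. From the summed counts of 1162 and 5, the level in testis was 254 times that in ovary, with an exact 95% interval for counting error from 108.5 to 784. The fitted log2 difference was 7.11 without ovary replicate 1 and 9.21 without ovary replicate 2.

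The second follistatin gene, fst-52846, had 289 and 108 counts (19.0 and 6.90 CPM) in the testes and 14 and 6 counts (0.741 and 0.403 CPM) in the ovaries. Testis replicate 1 was clearly above testis replicate 2, and both were above both ovaries. The fitted log2 difference was 4.46 ± 0.76 (SE, 95% interval 2.60 to 6.32, edgeR adjusted p 0.00362). Leaving out testis replicate 1 gave 3.53, and the gene was called in all 11 alternatives that tested it.

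The follistatin-like gene fstl3 (ENSDARG00000025670) did not differ beyond the spread between libraries. It had 123 and 91 counts (8.07 and 5.81 CPM) in the testes and 32 and 109 counts (1.69 and 7.33 CPM) in the ovaries, and ovary replicate 2 lay between the testes. Testis over ovary came to 0.63 ± 0.75 in log2 units (SE), with an edgeR adjusted p of 0.487. Its 95% interval of -1.21 to 2.47 leaves room for a difference in either direction, and without ovary replicate 1 the value was -0.06.

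Within a library the copies of a gene can be set against each other, since gene length then cancels between the sexes. Of the counts of the 2 inhba genes, inhba-24759 took 58.5% (exact 95% interval 54.4 to 62.6) and 60.8% (55.4 to 66.1) in the testes. In the ovaries it took 0 of 33 (0 to 10.6) and 0 of 105 counts (0 to 3.45). Of the counts of the 2 inhbb genes, inhbb-103892 took 0.496% (0.0602 to 1.78) and 0.472% (0.0572 to 1.69) in the testes and 61.7% (46.4 to 75.5) and 63.3% (49.9 to 75.4) in the ovaries. For both pairs the shares were alike in the libraries of one sex and far apart between the sexes. As inhbb-103892 is not settled as a copy of inhbb, its share may set different genes against each other. Of the counts of the 2 fst genes, fst-57992 took 70.4% and 81.4% in the testes and 1 of 15 and 4 of 10 counts in the ovaries, too few to place the share closely. For each of the 3 pairs the exact permutation test over the libraries gave a two-sided p of 0.333, the smallest that 2 against 2 libraries allow. The intervals cover counting error only.

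**Figure D3:**
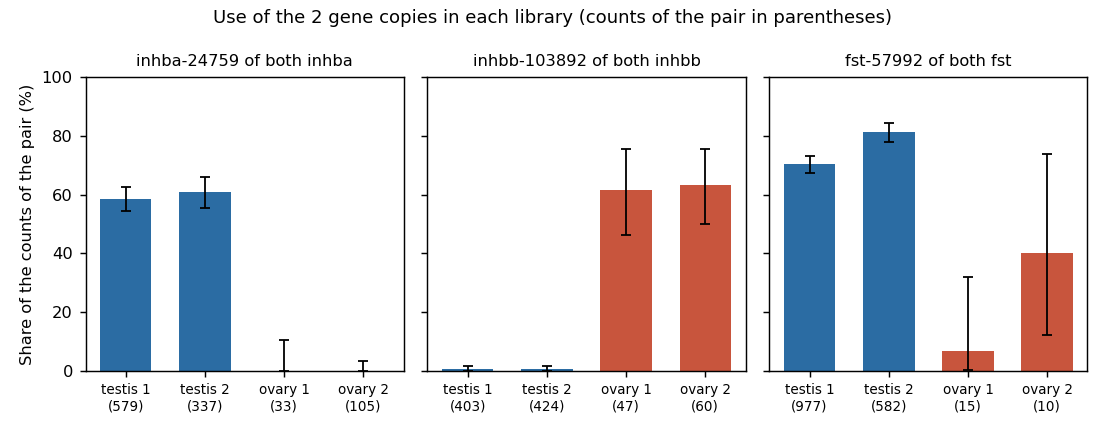
Share of one gene in the counts of its pair, in percent, for inhba, inhbb and fst, with testes in blue left of ovaries in red. Bars are single libraries, whiskers exact 95% binomial intervals, and the number in parentheses is the count of the pair. The testis shares of inhba-24759 are 58.5% and 60.8% beside 0% in both ovaries, and those of inhbb-103892 are 0.496% and 0.472% beside 61.7% and 63.3% in the ovaries. It is not settled that inhbb-103892 is a copy of inhbb.

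Inhibin needs both kinds of subunit, and the share of inha in the counts of the 5 subunit genes was therefore computed. It was 43.9% (exact 95% interval 41.5 to 46.2) and 47.8% (45.2 to 50.4) in the testes and 44.8% (36.6 to 53.3) and 60.0% (55.2 to 64.8) in the ovaries. The mean was 45.8% ± 2.77 (SD, n = 2) in testis and 52.4% ± 10.8 (SD, n = 2) in ovary. With inhbb-103892 counted, the share thus did not differ beyond the spread between the ovaries (exact permutation test, two-sided p = 0.667). Against inhbaa alone the direction turned, with shares of inha of 76.2% and 84.1% in the testes and 66.3% and 70.3% in the ovaries, which did not overlap (exact permutation test, two-sided p = 0.333, the smallest possible here). Among the 5 genes, the share in 3 of the 4 libraries lay between 43.9% and 47.8%, and ovary replicate 2 lay above. The 5 genes include inhbb-103892, which is not settled as a copy of inhbb. It gave 29 of 80 and 38 of 165 beta subunit counts in the ovaries, against 2 of 982 and 2 of 761 in the testes. Leaving it out would raise the ovary shares far more than the testis shares, which would widen the difference between the means. Shares without it were not computed. The 5-gene comparison therefore depends on counting inhbb-103892 as a subunit gene, and no lack of a difference can be read from it without that.

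The balance of follistatin and beta subunit counts differed more. The 2 fst genes had 0.995 and 0.765 counts per count of the 4 beta subunit genes in the testes, against 0.188 and 0.0606 in the ovaries. As a share of the counts of both kinds of gene, fst made up 49.9% and 43.3% in the testes and 15.8% (9.12 to 24.7) and 5.71% (2.77 to 10.3) in the ovaries. The testis and ovary values did not overlap, with 46.6% ± 4.62 (SD, n = 2) in testis and 10.8% ± 7.12 (SD, n = 2) in ovary (exact permutation test, two-sided p = 0.333, the smallest possible here). Here too inhbb-103892 is included, with 29 of 80 and 38 of 165 beta subunit counts in the ovaries. Leaving it out would raise the ovary values toward the testis values, and values without it were not computed. Ratios of counts of different genes depend on their lengths, so the values given serve to compare libraries and do not give numbers of molecules.

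The spread between libraries of one sex was not the same for all members. inha, inhbaa and fstl3 were 4.84 (95% counting interval 3.67 to 6.47), 4.04 (2.71 to 6.17) and 4.33 (2.89 to 6.63) times higher in ovary replicate 2 than in ovary replicate 1. The median of this ratio over 19621 tested genes with counts in both ovaries was 1.01, and the 5th and 95th percentiles were 0.40 and 3.81, so these 3 genes lay above the 95th percentile. inhbb-40777 and inhbb-103892 had ratios of 1.55 (0.795 to 3.07) and 1.66 (0.999 to 2.80), and fst-52846, on 20 counts, had 0.544 (0.171 to 1.51). fst-57992 had only 5 counts in the ovaries together.

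Most marker genes of somatic cells were also higher in ovary replicate 2. The smooth muscle gene acta2 was 4.11 times higher in ovary replicate 2, and the gonadotropin receptor genes lhcgr and fshr were 3.53 and 3.18 times higher. The stroma genes ran from 1.51 times for col1a1a and 2.05 times for col1a2 to 4.90 times for tagln-45408. Of the Leydig or theca genes, cyp17a1 was 1.18 times higher, hsd3b1 2.94 times and star 3.05 times, the last one on 24 and 10 counts. The granulosa cell gene foxl2-68417 was 1.89 times higher in ovary replicate 2, and the 4 genes of the granulosa list summed to 15.6 and 40.4 CPM in ovary replicates 1 and 2. The same list summed to 70.7 and 42.9 CPM in the testes, where fshr alone had 56.8 and 35.5 CPM. Its sum is therefore not a measure of granulosa cells alone. The oocyte genes gdf9, bmp15, figla, zar1, buc and zp3b had ratios from 0.553 to 1.02. Of the genes of the Sertoli list, which is named for a cell type of the testis, amh and gsdf were 2.44 and 2.04 times higher in ovary replicate 2. The third one, dmrt1, went the other way, with 631 counts in ovary replicate 1 and 12 in ovary replicate 2. So did the liver genes tfa (80 and 16 counts) and fabp10a (7 and 1 counts). The part of somatic cell content in the spread of inha, inhbaa and fstl3 was not tested.

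Between the testes, fst-52846 differed most among the members, being 2.75 times (2.20 to 3.46) higher in testis replicate 1, followed by inhbaa at 1.87 times and inhba-24759 at 1.70 times (1.42 to 2.03). Over 21662 tested genes with counts in both testes, the 5th and 95th percentiles of this ratio were 0.44 and 2.88, so all members lay between them. inha, at 1.13 times (1.02 to 1.26), and inhbb-40777, at 0.976 times (0.849 to 1.12), were close to equal. Of the Leydig or theca genes, insl3 and star were 3.90 and 2.71 times higher in testis replicate 1, and hsd3b1 and cyp17a1 were 1.40 and 1.39 times higher. The stroma genes ran from 1.82 times higher there for acta2 to 6.40 times for the collagen gene col1a2. Of the Sertoli cell genes, amh and gsdf had ratios of 1.13 and 1.05, and dmrt1 had 0.584 (0.563 to 0.606). Whether these cell types bear on the spread of fst-52846 was not tested.

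**Figure D4:**
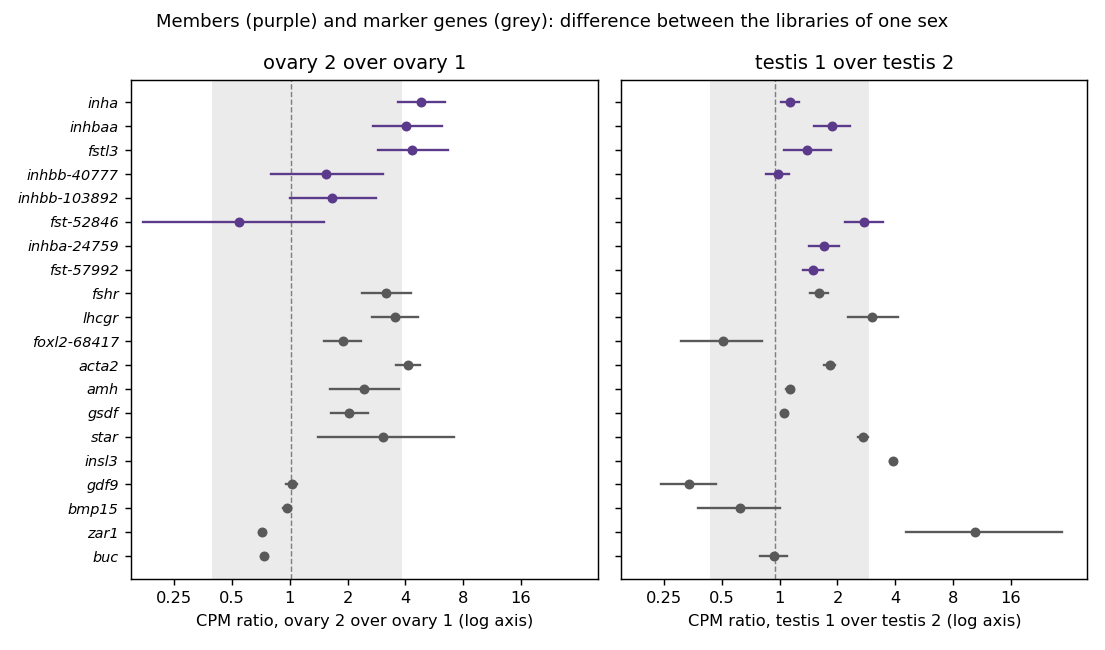
Ratio of the TMM-scaled levels of 2 libraries of one sex on log axes, ovary replicate 2 over 1 on the left and testis replicate 1 over 2 on the right. Members are purple and marker genes grey, lines are 95% counting intervals, the band spans the 5th to 95th percentile of tested genes and the dashed line is their median, and genes with under 5 counts in a library are not drawn. inha, inhbaa and fstl3 lie just above the band between the ovaries, not far from acta2, lhcgr and fshr. The genes foxl2-68417, amh and gsdf lie lower, and the oocyte genes lie near or below 1. Not all listed marker genes are drawn. Of those left out, tagln-45408 (4.90) and hsd3b1 (2.94) were also higher in ovary replicate 2. Lower ratios were those of col1a2 (2.05), col1a1a (1.51) and cyp17a1 (1.18), and dmrt1 (0.024) and tfa (0.25) went the other way.

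The genes whose profiles over the 4 libraries were most like those of 2 members were looked up among 17139 tested genes with a symbol, by the distance between mean-centred log2 CPM values. For inha they were znf1057 (distance 0.10), sorcs2 (0.16) and ptch1 (0.18), the last one a receptor of hedgehog proteins. ptch1 had 17.7 and 18.1 CPM in the testes and 1.17 and 5.71 CPM in the ovaries. For inhbaa, picked as the other member with the highest mean log2 CPM, a value that also depends on gene length, they were a copy of the 5S rRNA gene (0.11), b3gnt5-18971 (0.12) and nid1-103129 (0.14), which encodes a basement membrane protein. With 4 libraries, so short a distance describes the profile and no more. Among the members themselves the closest pairs were inhbaa with fstl3 (0.81) and inhba-24759 with fst-57992 (0.83).

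Of 11 receptor and co-receptor genes tested, 2 were higher in testis, 7 were higher in ovary and 2 did not pass, beside 36.7% and 28.5% of all genes, and the median on the log2 scale was -1.57. The genes higher in testis were 1 without testis replicate 2 and also 1 without either ovary. Those higher in ovary were 5 with library size scaling, without testis replicate 1 and without ovary replicate 2. The type I activin receptor gene acvr1ba had 48.0 and 36.3 CPM in the testes and 222 and 270 CPM in the ovaries (log2 fold change -2.55 ± 0.26, SE, edgeR adjusted p 0.000592). Its copy acvr1bb (-1.57) and the type II receptor genes acvr2ba (-1.85), acvr2b-103108 (-1.94) and acvr2ab were also higher in ovary. The type II receptor gene acvr2aa did not pass, with 91.0 and 104 CPM in the testes and 119 and 122 CPM in the ovaries (edgeR adjusted p 0.233, 95% interval on the log2 scale -0.81 to 0.20). Neither did acvr1c (edgeR adjusted p 0.588).

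Among co-receptors the genes went both ways. tgfbr3, whose product betaglycan is a co-receptor of inhibin in mammals, had 66.9 and 30.8 CPM in the testes and 3.34 and 7.80 CPM in the ovaries, higher by 3.14 ± 0.56 in log2 units (SE), with an edgeR adjusted p of 0.00423. tdgf1, a co-receptor of the related Nodal ligands, had 5.31 and 5.43 CPM in the testes and 76.9 and 57.2 CPM in the ovaries (-3.64 ± 0.28, SE, edgeR adjusted p 0.000272). Of the genes for the decoy receptor Bambi, bambi-99677 was higher in testis (2.23) and bambi-55381 higher in ovary (-2.22).

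Of 17 genes of the Smad list, 5 were higher in testis, 6 were higher in ovary and 6 did not pass, beside 36.7% and 28.5% of all genes, and the median on the log2 scale was -0.72. With library size scaling the median turned to 0.03, and with at least 10 counts in every library to 0.44. Under each of these settings 7 genes were higher in testis and 4 in ovary, and the genes higher in testis were 3 without testis replicate 1 and 3 without testis replicate 2. smad2, a Smad that activin receptors phosphorylate, had 55.4 and 47.1 CPM in the testes and 346 and 328 CPM in the ovaries (-2.72 ± 0.24, SE, edgeR adjusted p 0.000379). Both smad3 genes, whose products are also phosphorylated by these receptors, were higher in testis, smad3-36096 by 1.51 ± 0.24 (SE) and smad3-10207 by 1.33 ± 0.36 (SE) on the log2 scale (edgeR adjusted p 0.0029 and 0.0177). foxh1, a DNA-binding partner of Smad2, had 1.18 and 0.575 CPM in the testes and 169 and 173 CPM in the ovaries (-7.60 ± 0.42, SE, edgeR adjusted p 0.000131).

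The genes for inhibitory Smads that passed, smad6-31763 (3.10) and smad7 (2.36), were higher in testis, as was the co-repressor gene skilb (2.43). Genes for the ubiquitin ligases smurf1 (-1.83) and smurf2 (-1.42), for the shared partner smad4-75226 (-1.06) and for the Smad anchor zfyve9 (-0.72) were higher in ovary. The other smad4 gene, smad4-12649, went the other way (1.68) and did not pass (edgeR adjusted p 0.0664). It was called higher in testis with library size scaling (edgeR adjusted p 0.0331). The other smad6 gene, smad6-53209 (-0.83), did not pass either (edgeR adjusted p 0.302). With library size scaling zfyve9 turned to 0.03 and was not called. smad4-75226 (-0.31), acvr2ab (-0.27) and bambi-55381 (-1.53) also lost their calls there, while the values of acvr2aa, acvr1c and furin-62909, which did not pass, also turned positive. smad7 differed between the ovaries as inha did, with 1.38 and 7.39 CPM.

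A further list held follistatin-like genes, ligands that follistatin also binds, proprotein convertases and related antagonists. Of its 12 genes 10 were tested. At an edgeR adjusted p under 0.05, 6 were higher in testis and 0 were higher in ovary, beside 36.7% and 28.5% of all genes. DESeq2 called 1 as higher in ovary. The median on the log2 scale was 2.22, beside 0.45 over all genes tested. The genes mstnb, gdf11, fstl1-15559 and wfikkn2b passed the filter on low counts only by their testis counts. With at least 10 counts in every library, 6 genes of this list were tested and 2 were higher in testis. The median was then 0.48, beside 0.07 over all genes tested. Without ovary replicate 1, and also without ovary replicate 2, 3 were higher in testis. Furin cleaves the precursors of activin subunits. furin-70971 had 75.9 and 93.7 CPM in the testes and 16.9 and 21.2 CPM in the ovaries (2.15 ± 0.25, SE, edgeR adjusted p 0.000907), while furin-62909, with 138 and 113 CPM in the testes and 179 and 182 CPM in the ovaries, did not pass (edgeR adjusted p 0.0795). Most of the other called genes had few counts. mstnb, the myostatin gene, had 22 and 32 counts in the testes and 1 and 0 in the ovaries, and gdf11 had 13 and 28 counts in the testes and 4 and 1 in the ovaries. fstl4 had 100 and 221 counts in the testes and 45 and 27 in the ovaries. wfikkn2b and fstl1-15559 were also higher in testis, and fstl1-39576, fstl5 and wfikkn2a did not pass.

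**Figure D5:**
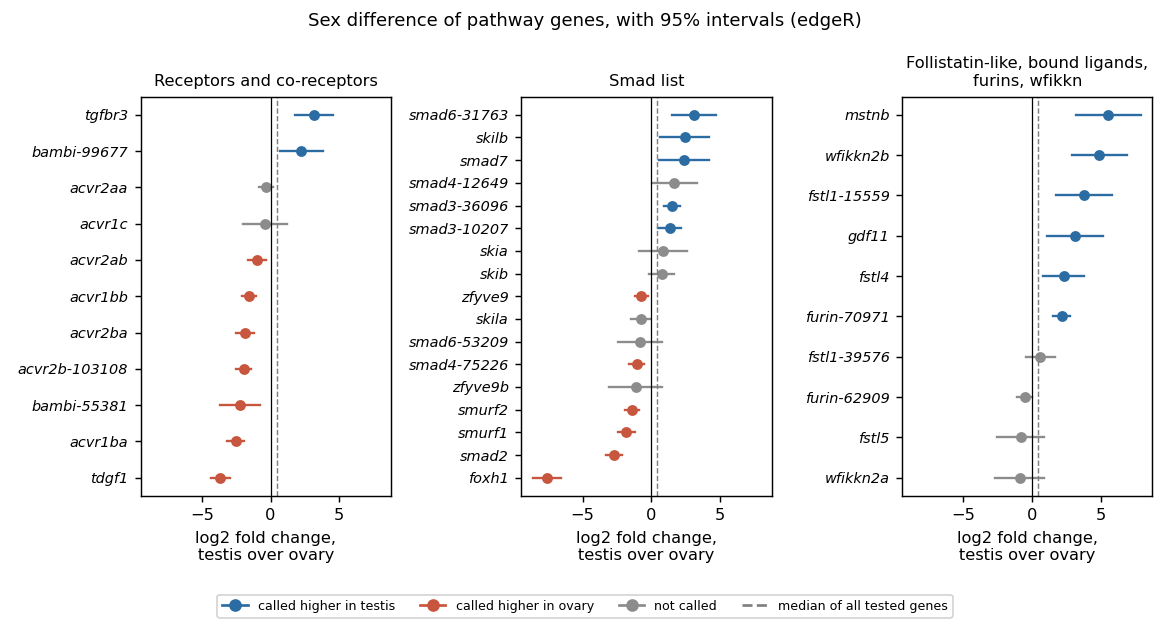
Log2 fold change, testis over ovary, of the tested genes of 3 lists with 95% intervals from edgeR. Blue marks genes called higher in testis, red higher in ovary and grey not called, and the dashed line is the median of all tested genes (0.45). Of the receptors 2 are blue and 7 red, of the Smad list 5 blue and 6 red, and of the further list 6 blue and 0 red, where mstnb, fstl1-15559, gdf11 and wfikkn2b rest on at most 6 counts over both ovaries.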

How the data were processed

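The deposited table holds raw read counts per gene, made by the authors from stranded libraries of single gonads (the labels name rRNA depletion, the methods polyA selection). Per the labels, GRCz11, FastQC 0.11.8, HISAT2 2.0.5, SAMtools 1.5 and HTSeq 0.9.1 were used, and the methods add that duplicates were removed and reads counted on the stated strand. Reads that align to several genes are left out unless a setting keeps them, so counts of close copies are uncertain, and removal of duplicates may compress high counts. Symbols came from a table that named 29201 of the 32520 IDs and were written in lower case.

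Tests used edgeR 4.0.16 under R 4.3.3 (filterByExpr, TMM, quasi-likelihood test of testis against ovary, Benjamini-Hochberg over 21815 genes, called at an adjusted p under 0.05). The SE is the size of the log2 fold change over the root of F. Shares and figures were made in Python 3.11.15 with scipy 1.17.1 and matplotlib 3.10.9. Binomial intervals are Clopper-Pearson. A chi-square statistic between replicates was 31.5 per degree of freedom for testis and 56.7 for ovary, so each library was kept as 1 replicate. The fit was also tested on simulated data. Of 200 genes changed in the simulation, 123 were recovered, with 8 false calls among the 20907 genes simulated, so a changed gene can fail to pass. In the data 65.2% of the genes tested were called, a far larger share than was changed there. Recovery and false calls at such a share were not tested.

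The genes were fixed by symbol. Named were all 8 members, called or abundant genes of the 3 lists, and the 3 nearest profiles of inha and of inhbaa. Members and lists were chosen with earlier results of these data known. Alternatives were DESeq2 size factors, library size scaling, DESeq2 1.42.0, no filter, at least 10 counts in every library, a replicate block, thinning, leaving out each library, and the legacy fit of edgeR, which was added after seeing the data. Shares of inha per coding length were not run, since no lengths were used here. Marker lists were of oocyte, granulosa, Sertoli, Leydig or theca, spermatocyte, blood, liver and stroma genes.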

Additional observations from a re-analysis of the deposited data

How the results depend on the processing

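Of the 8 genes, inhba-24759, inhbb-40777, inhbb-103892 and both fst genes kept their call and direction in each alternative that tested them. At least 10 counts in every library left 4 of them untested. The call of inha was lost with no filter beyond 1 count (log2 fold change 2.19, edgeR adjusted p 0.0606), and that of inhbaa was gained, and that of inha lost, when 1 library was left out. With each library left out in turn, where the lone library is assumed to vary like the others, the log2 fold change ran from 1.52 to 3.70 for inha, from 0.80 to 2.71 for inhbaa and from -0.0622 to 1.95 for fstl3. The cause was not tested. With at least 10 counts in every library, 15277 genes were tested, against 21815, and 4566 were higher in testis, against 8002. The share of calls higher in testis was 50.1% there. The genes higher in ovary numbered 3833 with library size scaling, against 6217. That scaling moved the median of all genes to 1.19 and the share of calls higher in testis to 73.1%, against 56.3%. The genes higher in testis ran from 1 to 2 for the receptors, from 3 to 6 for the Smad list and from 3 to 6 for the list of follistatin-like and related genes when a library was left out. In that list 2 were higher in testis with at least 10 counts in every library, and those higher in ovary were 1 with DESeq2's test and 0 to 1 with a library left out. Against inhbaa alone, the share of inha was 11.8 percentage points higher in testis, where the share among all subunit genes was 6.63 points lower. The replicate numbers do not pair the fish. Deviations of same-numbered libraries had a correlation of -0.03, and with a replicate block 7191 genes were higher in testis and 5610 in ovary, with no call of a member changed.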

Other observations

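Lists of other tissues were summed as a check. The 3 liver genes summed to 20.7 and 5.11 CPM in the testes and 4.71 and 1.28 CPM in the ovaries, the blood gene hbaa1 had 9.19 and 4.28 CPM in the testes and 1.69 and 4.91 CPM in the ovaries, and the 4 Leydig or theca genes summed to 1650 and 562 CPM in the testes and 239 and 292 CPM in the ovaries. The 5 stroma genes summed to 805 and 220 CPM in the testes and 70.8 and 157 CPM in the ovaries. No test was run on these sums.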
